A study of Homo sapiens with 16 samples.

Results

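A set of 9 enzymes that make serine, convert it to glycine and carry its one-carbon units on folate were followed through the 16 RNA-seq libraries of 2 papillary thyroid carcinoma cell lines, TPC1 and K1. The 9 genes, among 25369 in the count table, were PHGDH, PSAT1, PSPH, SHMT1, SHMT2, MTHFD1, MTHFD1L, MTHFD2 and ALDH1L2. They were chosen by name as the enzymes of this route, and their level was read in every library as CPM, the count scaled to a common sequencing depth. Each line was grown for 24 h in 0.2% DMSO (vehicle), 10 µM nutlin-3a (nutlin), which blocks the binding of MDM2 to p53, 25 µM GSK2830371, an inhibitor of the phosphatase PPM1D, or both drugs together (combination). There were 2 libraries per group. TPC1 was grown in RPMI and K1, labelled as GLAG-66, in DMEM, so the line, its medium and its set of libraries cannot be told apart. The labels do not say how the 2 libraries of a group relate, while the study's methods describe its replicates in general as independent biological ones. The p-values measure the spread between these samples.

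Serine is built from a glycolytic intermediate in 3 steps. PHGDH oxidises phosphoglycerate, PSAT1 adds an amino group taken from glutamate, and PSPH removes the phosphate. The hydroxymethyltransferases then split serine into glycine and a one-carbon unit, SHMT1 in the cytosol and SHMT2 in mitochondria. In mitochondria MTHFD2 oxidises the unit bound to folate and MTHFD1L releases it as formate, while ALDH1L2 burns it to carbon dioxide. In the cytosol MTHFD1 takes formate up again for the synthesis of purines and thymidylate. ATF4, a transcription factor of the amino acid response, is known to drive several genes of serine synthesis and of the mitochondrial branch. E2F factors drive many genes of the S phase.

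The sequences below show where the letters of 2 factors' motifs lie near these genes. TGATGNAA is a composite motif bound by ATF4 with a C/EBP partner, and TTTCCCGC and TTTGGCGC are forms of the E2F motif. All were searched on both strands, within 1000 bases on either side of the annotated start of each gene's canonical transcript. TGATGNAA occurred around 6 of the 9 genes, ALDH1L2, MTHFD1L, MTHFD2, PHGDH, PSAT1 and SHMT2, and around 19.4% of 19658 genes searched the same way. Either E2F form occurred around MTHFD1, MTHFD2 and SHMT2, 3 of the 9, and around 10.3% of all genes. Each line gives 28 bases in the sense of the gene, 5′ to 3′, from GRCh37, with the motif in capitals. TTGCATCA is TGATGNAA read on the opposite strand. The first 6 sites all lie in intron 1 of the gene's canonical transcript, between 267 and 863 bases after its start. The E2F site of MTHFD1 lies 264 bases before the start of that gene's transcript.
PSAT1, chr9:80912308-80912315: cctaggcgctTTGCATCAgcgtgcacag
SHMT2, chr12:57623953-57623960: gccctgcagaTGATGCAAccgagcttca
MTHFD2, chr2:74426340-74426347: ctgctgcagcTGATGAAAtcgcggagcc
MTHFD1L, chr6:151187493-151187500: ccgccggctcTGATGCAAtcgcgccggg
ALDH1L2, chr12:105477510-105477517: cgccttggaaTTGCATCAgctcctccag
PHGDH, chr1:120255420-120255427: gcccctcgtcTGATGCAAgactgctccg
MTHFD1, chr14:64854807-64854814: ttcggccgggTTTCCCGCcgaatacaaa

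A further TGATGNAA match lay upstream of ALDH1L2, 974 bases before its start, and another upstream of PHGDH, 954 bases before its start. SHMT2 held a second one in intron 1 and an E2F form 47 bases before its start. The E2F form of MTHFD2 lay 894 bases before its start. The window was chosen after a shorter one had been searched, the RefSeq promoters from 250 bases before to 50 after a start. There the composite motif occurred in 3.62% of 35116 promoters and in those of 1 gene, MTHFD1L, while an E2F form occurred in 2.27% and in no promoter of the 6 of the 9 genes that the promoter table held. The MTHFD1L match there is the same site as printed above. It lay 129 and 90 bases before RefSeq starts of the gene and 24 bases after another. A match is a description of letters, and binding at these places was not tested here.

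The libraries held 30789887 to 76648552 reads counted on genes in TPC1 and 28888686 to 37161241 in K1. The lowest count of any of the 9 genes in any library was 177, so counting error was small for all of them. As a check of the treatment, CDKN1A, a p53 target, rose from 125 and 152 CPM in DMSO to 6819 and 6996 CPM under nutlin in TPC1. In K1 it stood at 109 and 116 CPM in DMSO and at 967 and 1055 CPM under nutlin. The thyroid factors PAX8 (298 CPM or more) and FOXE1 (22.3 CPM or more) were present in every library, while TSHR was at 0 reads in all 16. Of the epithelial genes KRT8 and KRT18 were high, at 118 CPM or more, but CDH1 and EPCAM reached at most 0.0685 and 0.521 CPM. Of 7 genes of blood, endothelium and liver, 6 stayed under 1 CPM, whereas CD68 lay between 33.3 and 76.2 CPM. CD68 was at 33.3 and 37.1 CPM in TPC1 DMSO and at 68.8 and 75.0 CPM under nutlin, and its part in the nutlin results was not tested. In bulk RNA, fewer cells of a kind and less RNA per cell cannot be told apart.

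Levels were first compared between genes as CPM per kilobase of the canonical transcript in DMSO. In TPC1 PSAT1 was the most abundant, with 154 and 160 CPM per kilobase, followed by SHMT2 with a mean of 139, PHGDH with 110 and MTHFD1 with 83.1. MTHFD2 (53.9), PSPH (34.2), MTHFD1L (30.2), SHMT1 (15.7) and ALDH1L2 (9.29) followed, and no 2 neighbours in this order overlapped between their libraries. In K1 PHGDH (108) and SHMT2 (103) led and overlapped each other, ahead of PSAT1 (74.1), MTHFD1 (45.8) and MTHFD2 (26.0). SHMT1 (14.3) and MTHFD1L (13.9) overlapped there too, and PSPH (11.01) and ALDH1L2 (8.21) came last. ALDH1L2 was thus the lowest in DMSO in both lines, and SHMT1, the cytosolic enzyme, stood far below its mitochondrial counterpart SHMT2 in both.

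Of the 9 genes, 5 were lower in K1 than in TPC1 in DMSO, and none was higher. A gene was called where the quasi-likelihood test of edgeR, with Benjamini-Hochberg adjustment over all genes, gave an adjusted p under 0.05 and the change was over 1.5-fold. Among all 16738 genes tested between the lines, 21.2% were called lower and 25% higher. PSPH differed most, by a log2 difference of -1.63 ± 0.107 (SE, adjusted p = 7.15e-10), with 62.9 and 72.0 CPM in TPC1 against 20.6 and 22.9 CPM in K1. MTHFD1L (-1.12 ± 0.110), PSAT1 (-1.08 ± 0.198), MTHFD2 (-1.05 ± 0.134) and MTHFD1 (-0.86 ± 0.0685) were lower too. PHGDH (-0.04 ± 0.105), SHMT1 (-0.13 ± 0.0899) and ALDH1L2 (-0.18 ± 0.190) overlapped between the lines, and SHMT2 differed by -0.43 ± 0.117, under 1.5-fold. These differences are of lines in different media.

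**Figure D1:**
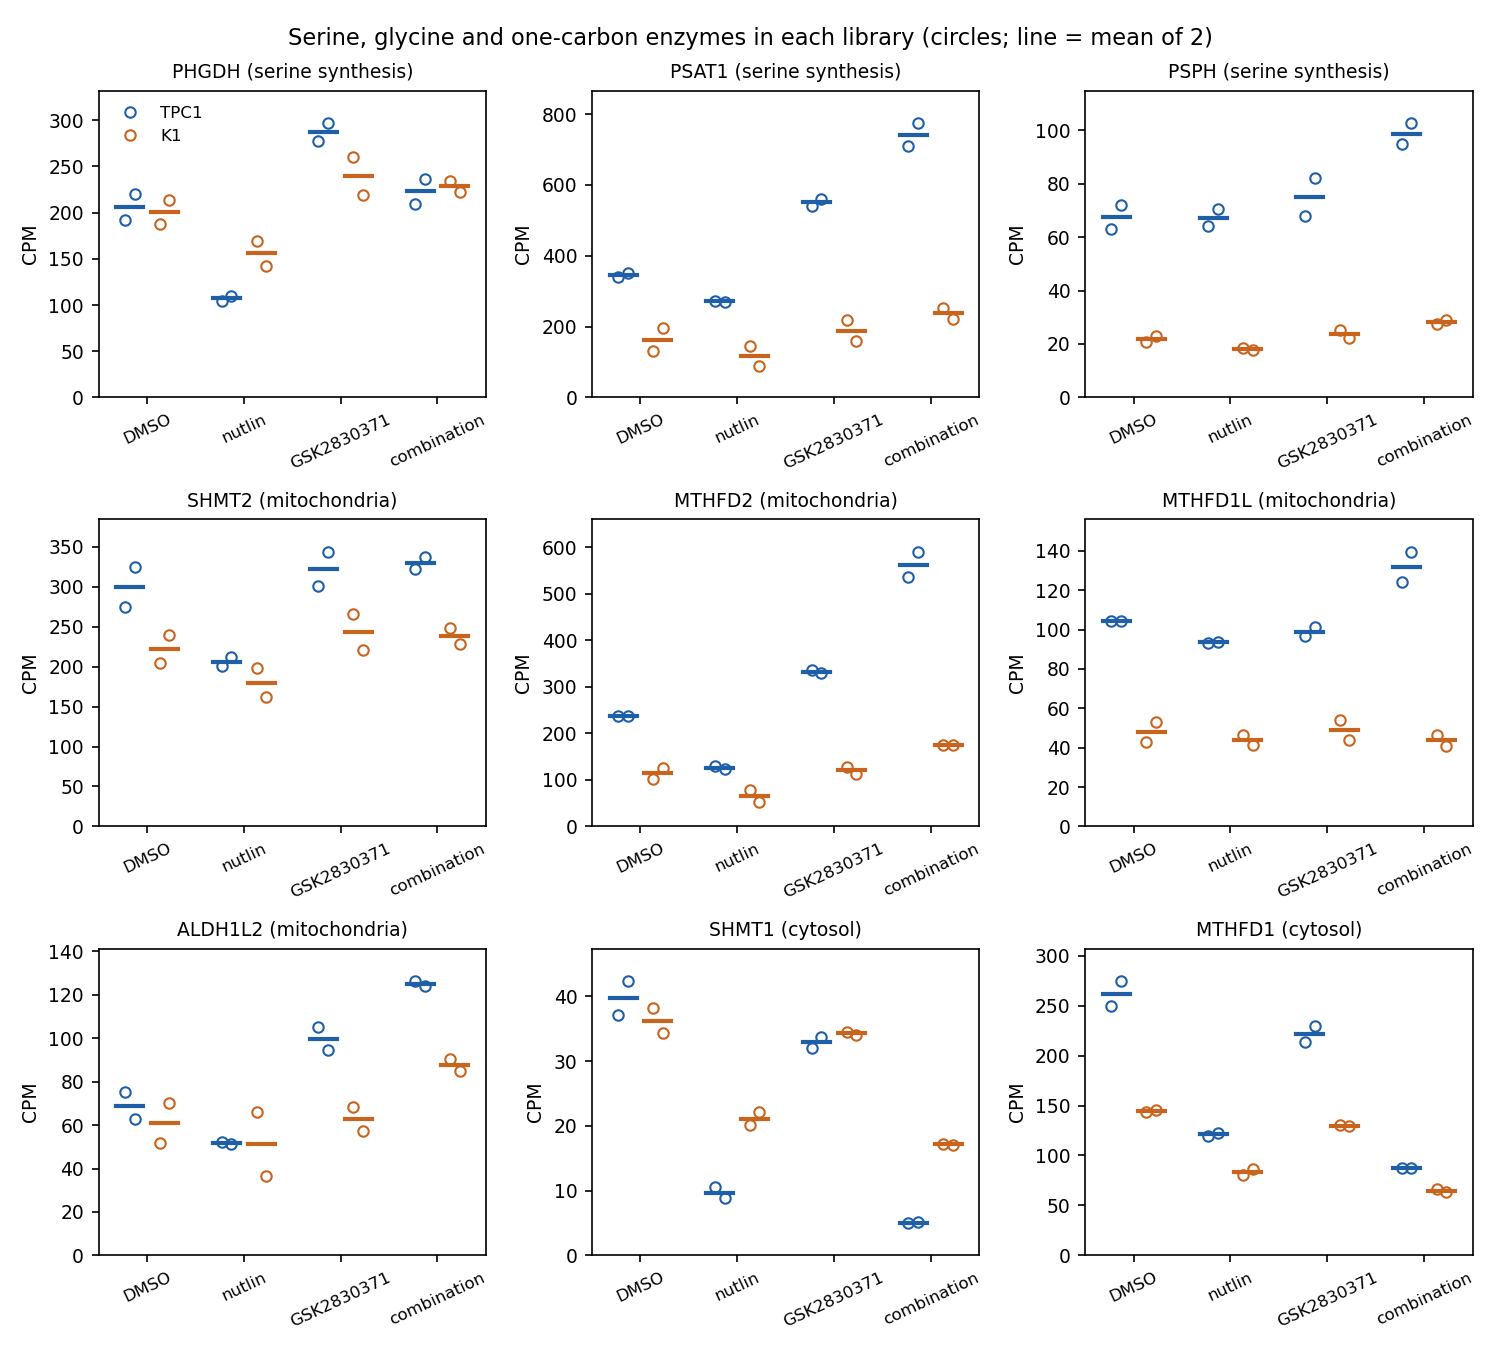
CPM of each of the 9 genes in the 16 libraries, by treatment (x axis), with circles for single libraries and a line for the mean of 2, TPC1 in blue and K1 in orange. SHMT1 and MTHFD1 stand lowest under nutlin and the combination in both lines, whereas PSAT1, MTHFD2 and ALDH1L2 stand highest under the combination, and in TPC1 MTHFD2 reaches 537 and 589 CPM there.

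Nutlin alone lowered 4 of the 9 genes in TPC1 and 3 in K1, and raised none in either line. Of all genes, 18% were called lower and 17.5% higher in TPC1 (15273 tested), and 5.43% lower and 3.84% higher in K1 (15900 tested). The median log2 fold change of the 9 genes was -0.57 in TPC1 and -0.36 in K1. Over all genes the median lay between -0.03 and 0.02 in each of the 16 comparisons made here. The 3 genes that fell in both lines were SHMT1, MTHFD1 and MTHFD2, and PHGDH fell as well in TPC1.

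SHMT1 stood at 37.1 and 42.3 CPM in the TPC1 DMSO libraries and at 10.5 and 8.93 CPM under nutlin. In K1 it went from 38.1 and 34.4 CPM to 20.1 and 22.2 CPM. The groups did not overlap in either line, with log2 fold changes of -2.08 ± 0.101 (adjusted p = 2.91e-07) in TPC1 and -0.78 ± 0.0764 (adjusted p = 4.09e-06) in K1. The fall was larger in TPC1, and the difference between the lines was itself called, at 1.27 ± 0.135 (adjusted p = 2.60e-06).

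MTHFD1, the cytosolic enzyme that carries 3 activities, stood at 250 and 274 CPM in TPC1 DMSO and at 120 and 123 CPM under nutlin. In K1 it stood at 144 and 145 CPM in DMSO and at 80.7 and 86.4 CPM under nutlin. It fell by 1.15 on the log2 scale (SE 0.0712) in TPC1 and by 0.79 (SE 0.0541) in K1, with adjusted p of 1.37e-06 and 1.32e-07. The difference between the lines was 0.32 ± 0.0971, under 1.5-fold. SHMT1 and MTHFD1 overlap SMCR8 and ZBTB25 on the opposite strand, and the libraries were strand-specific.

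MTHFD2 stood at 238 and 237 CPM in TPC1 DMSO and at 130 and 123 CPM under nutlin, a log2 fold change of -0.94 ± 0.0795 (adjusted p = 9.75e-06). In K1 it stood at 103 and 126 CPM in DMSO and at 78.2 and 52.7 CPM under nutlin, a log2 fold change of -0.81 ± 0.139 (adjusted p = 0.000572). The K1 value rests on nutlin library 2. Without that library MTHFD2 was at -0.55 and was no longer called.

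PHGDH, the first enzyme of serine synthesis, was at 192 and 220 CPM in TPC1 DMSO and 105 and 110 CPM under nutlin, a log2 fold change of -0.98 ± 0.0866 (adjusted p = 1.37e-05). The K1 libraries read 188 and 213 CPM in DMSO and 170 and 142 CPM under nutlin (-0.36 ± 0.0932, adjusted p = 0.00937), a change under 1.5-fold. The difference between the lines, 0.58 ± 0.150, lay just under the 1.5-fold bound. It was called without K1 nutlin library 2 (0.70), K1 DMSO library 2 (0.67), TPC1 DMSO library 1 (0.67) or TPC1 nutlin library 3 (0.61).

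The other 5 genes were called in neither line under nutlin. Some of them fell by less than 1.5-fold with an adjusted p under 0.05 by edgeR. These were SHMT2 (adjusted p = 0.000563), PSAT1 (0.00165) and ALDH1L2 (0.00699) in TPC1, and SHMT2 (0.0412) and PSPH (0.0338) in K1. In TPC1 SHMT2 was at -0.57 ± 0.0905, also just under 1.5-fold, and was called without DMSO library 1 (-0.67) or nutlin library 3 (-0.60). ALDH1L2 (-0.45), PSAT1 (-0.39), MTHFD1L (-0.19) and PSPH (-0.04) lay nearer to 0 in TPC1. In K1 PSAT1 was at -0.49 ± 0.212 and ALDH1L2 at -0.26 ± 0.199, with nutlin library 1 far above nutlin library 2. PSAT1 read 146 and 87.5 CPM in those 2 libraries, and ALDH1L2 65.9 and 36.5 CPM. Without nutlin library 1 PSAT1 (-0.90) and ALDH1L2 (-0.74) were called lower, and PSAT1 was called also without DMSO library 1 (-0.74). SHMT2 (-0.30), PSPH (-0.26) and MTHFD1L (-0.13) were not called in K1 either.

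GSK2830371 alone raised PSAT1 in TPC1, 1 of the 9 genes, and called none of the 9 in K1. Over all genes 0.72% were called higher and 0.681% lower in TPC1, and 0.736% higher and 1.5% lower in K1. PSAT1 rose from 340 and 352 CPM to 542 and 561 CPM in TPC1, a log2 fold change of 0.67 ± 0.0733 (adjusted p = 0.00434). Without GSK2830371 library 3 the value was the same, 0.67, with an adjusted p of 0.0666. A further 3 genes had an adjusted p under 0.05 in TPC1 with a change under 1.5-fold, ALDH1L2 (0.53 ± 0.110), MTHFD2 (0.49 ± 0.0787) and PHGDH (0.48 ± 0.0856). ALDH1L2 was called without DMSO library 1 (0.69).

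In K1 the values under GSK2830371 alone lay between -0.16 for MTHFD1 and 0.25 for PHGDH. These 2 genes had adjusted p of 0.0553 and 0.073 by edgeR. Of the 9, 2 had an unadjusted p under 0.05, and DESeq2's Wald test called 0 as well. PSAT1 in K1 read 132 and 195 CPM in DMSO and 218 and 158 CPM with the inhibitor (0.20 ± 0.209). The libraries of the 2 groups overlapped, and the error was wider than the 0.0733 of TPC1.

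Against nutlin alone, the combination raised 5 of the 9 genes in TPC1 and 4 in K1, where 6.46% and 1.16% of all genes were called higher. Of the 9, 1 gene, SHMT1, fell in TPC1 and none fell in K1, where 5.66% and 1.52% of all genes were called lower. MTHFD2, PSAT1 and ALDH1L2 rose in both lines, PHGDH and SHMT2 rose in TPC1, and PSPH rose in K1. The median log2 fold change of the 9 genes was 0.68 in TPC1 and 0.55 in K1.

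**Figure D2:**
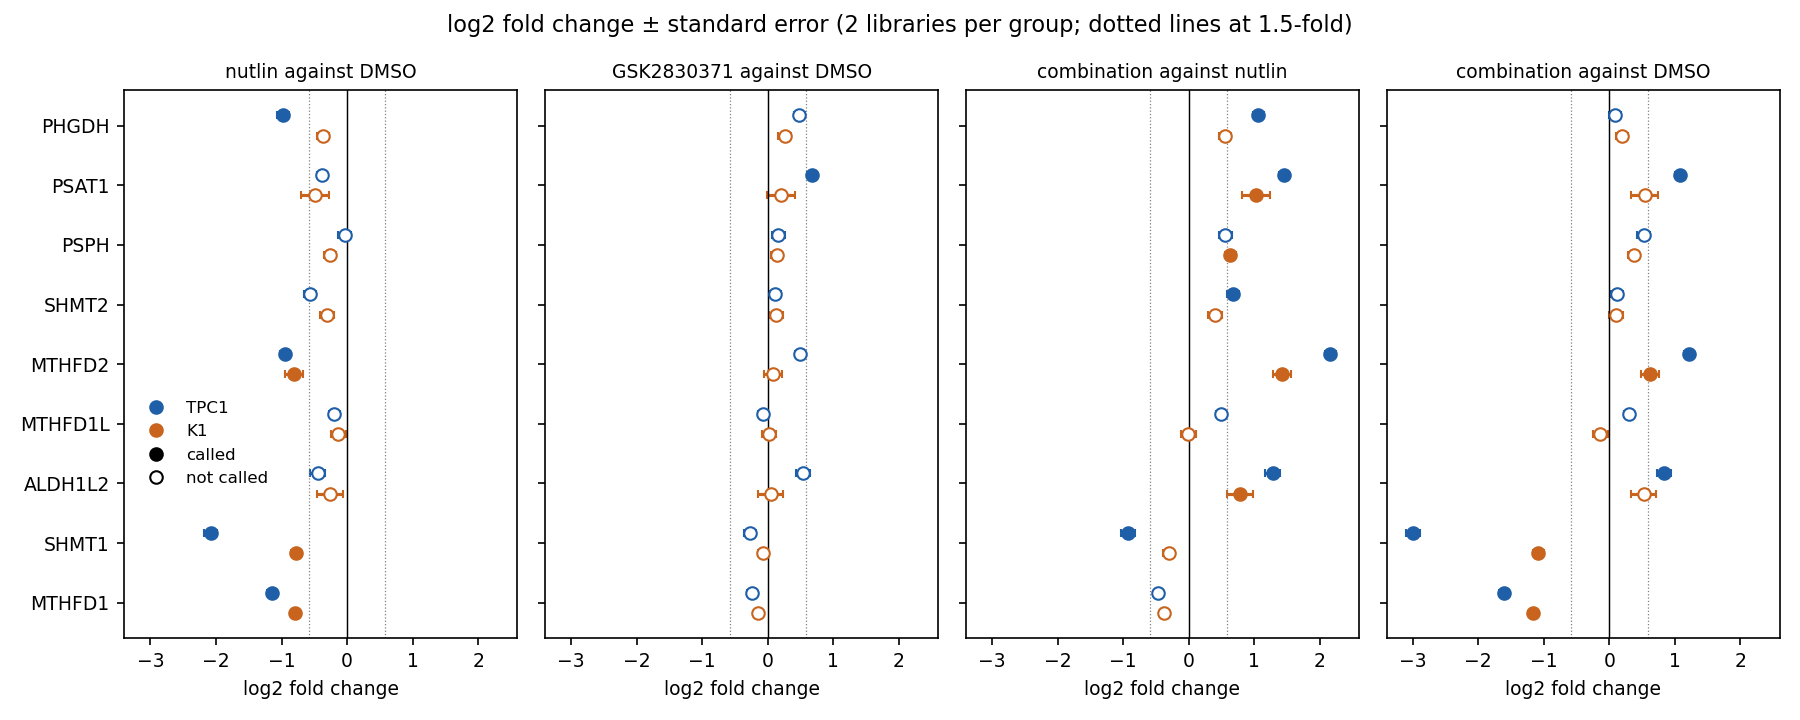
log2 fold change of each gene (rows) in 4 comparisons (panels), TPC1 in blue and K1 in orange, with bars for the standard error, filled circles for called changes, and dotted lines at 1.5-fold. In the panel of the combination against nutlin, MTHFD2 lies farthest right in both lines, at 2.16 in TPC1 and 1.43 in K1, and SHMT1 and MTHFD1 lie left of 0.

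MTHFD2 rose from 130 and 123 CPM under nutlin to 537 and 589 CPM under the combination in TPC1, a log2 fold change of 2.16 ± 0.0820 (adjusted p = 1.53e-06). In K1 it rose from 78.2 and 52.7 CPM to 176 and 176 CPM, by 1.43 ± 0.139 (adjusted p = 6.16e-05). DESeq2's moderated fold change, fitted on only the groups compared, was smaller in K1, at 0.72 (adjusted p = 2.85e-05). MTHFD2 had the largest edgeR change of the 9 genes in both lines. The rise was larger in TPC1 by edgeR's quasi-likelihood test of the difference (-0.73 ± 0.189, adjusted p = 0.0239). That call was lost when either K1 combination library, K1 nutlin library 1, either TPC1 nutlin library or TPC1 combination library 3 was left out. The difference was then between -0.77 and -0.42.

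PSAT1 rose from 272 and 271 CPM to 710 and 774 CPM in TPC1, by 1.46 ± 0.0745 on the log2 scale (adjusted p = 7.78e-06). In K1 it rose from 146 and 87.5 CPM to 253 and 222 CPM, by 1.02 ± 0.212 (adjusted p = 0.00725). The K1 call was lost without nutlin library 2 (0.70, adjusted p = 0.111) and without combination library 1 (0.91, adjusted p = 0.0689). With DESeq2's moderated fold change on only the groups compared it was 0.38 (adjusted p = 0.0600), not called.

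ALDH1L2 rose from 52.4 and 51.2 CPM to 126 and 124 CPM in TPC1, by 1.28 ± 0.112 (adjusted p = 0.000115). In K1 it went from 65.9 and 36.5 CPM to 90.6 and 84.8 CPM, by 0.78 ± 0.197 (adjusted p = 0.0208). The K1 libraries did not overlap, but the call was lost without nutlin library 2 (0.41), combination library 1 (0.72) or combination library 2 (0.83). DESeq2's Wald test gave 0.76 with an adjusted p of 0.135, and the moderated fold change on only the groups compared was 0.25 (adjusted p = 0.265).

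PHGDH rose in TPC1 from 105 and 110 CPM to 210 and 236 CPM, by 1.06 ± 0.0868 (adjusted p = 8.62e-05). In K1 it went from 170 and 142 CPM to 235 and 222 CPM, by 0.55 ± 0.0933 (adjusted p = 0.00217), which is under 1.5-fold. The K1 change was called without nutlin library 1 (0.68) or combination library 2 (0.59). SHMT2 rose in TPC1 from 201 and 212 CPM to 322 and 337 CPM, by 0.68 ± 0.0907 (adjusted p = 0.000952). In K1 its change was 0.41 ± 0.104.

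PSPH, the last step of serine synthesis, rose in K1 from 18.7 and 17.6 CPM to 27.4 and 28.9 CPM, by 0.64 ± 0.0852 (adjusted p = 0.000485). The moderated DESeq2 value was 0.55 (adjusted p = 2.14e-06), under 1.5-fold and so not called. In TPC1 it went from 64.1 and 70.6 CPM to 94.9 and 103 CPM (0.56 ± 0.102, adjusted p = 0.00441), a change of nearly the same size that stayed under 1.5-fold. It was called there without nutlin library 3 (0.62) or combination library 1 (0.61). The difference between the lines was 0.08 ± 0.149. MTHFD1L was at 0.50 ± 0.0769 in TPC1 and at -0.01 ± 0.113 in K1, and the difference of -0.50 ± 0.156 had an adjusted p of 0.0577.

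The 2 cytosolic enzymes went the other way. SHMT1 fell further from 10.5 and 8.93 CPM under nutlin to 4.97 and 5.12 CPM under the combination in TPC1, by 0.92 on the log2 scale (SE 0.110, adjusted p = 0.000547). Its K1 value was -0.31 ± 0.0810, and the difference between the lines, 0.62 ± 0.146, was called (adjusted p = 0.0139). That difference was not called without TPC1 nutlin library 1 (0.52) or K1 nutlin library 1 (0.55). MTHFD1 was at -0.46 ± 0.0710 in TPC1 and at -0.37 ± 0.0554 in K1, both with an adjusted p under 0.05 and under 1.5-fold. For SHMT1 and MTHFD1 the combination libraries lay below the nutlin libraries, without overlap, in both lines. The share of all genes without overlap was not counted.

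Against DMSO, TPC1 cells given the combination had 3 of the 9 genes higher and 2 lower, and K1 cells had 1 higher and 2 lower. Among all genes 22.5% were called higher and 21.7% lower in TPC1, and 7.62% higher and 8.09% lower in K1. This comparison, like those of either drug alone, uses the DMSO libraries, and the comparison with nutlin shares the combination libraries, so the 4 are not independent. In TPC1 MTHFD2 (1.22 ± 0.0795), PSAT1 (1.07 ± 0.0738) and ALDH1L2 (0.83 ± 0.110) were higher than in DMSO. In K1 MTHFD2 was higher (0.62 ± 0.134, adjusted p = 0.00198), but without DMSO library 1 it was at 0.48 and not called. PSAT1 (0.54 ± 0.209) and ALDH1L2 (0.52 ± 0.194) were not called in K1, where DMSO library 2 was the higher one. Without it they were called, at 0.85 and 0.76.

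SHMT1 and MTHFD1 were the 2 lowered genes in both lines. SHMT1 was at -3.00 ± 0.107 in TPC1, the largest change of any of the 9 genes in any comparison, and at -1.08 ± 0.0775 in K1. The difference between the lines was 1.89 ± 0.140 (adjusted p = 3.07e-08). MTHFD1 was at -1.61 ± 0.0721 in TPC1 and -1.16 ± 0.0548 in K1, a difference of 0.42 ± 0.0974 under 1.5-fold. PHGDH and SHMT2 stood near their DMSO levels, with 0.09 ± 0.0855 and 0.11 ± 0.0901 in TPC1 and 0.19 ± 0.0924 and 0.10 ± 0.104 in K1. PSPH was at 0.52 ± 0.102 in TPC1 and at 0.37 ± 0.0826 in K1, under 1.5-fold, and was called in TPC1 without DMSO library 3 (0.62). MTHFD1L was at 0.31 ± 0.0766 and -0.14 ± 0.112.

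Between the lines, 1 gene (SHMT1) was called higher and 1 (MTHFD2) lower in K1 for the combination effect, with 11.9% and 13.8% of all genes called so. For the nutlin effect 1 gene, SHMT1, was called higher and none lower, with 8.73% and 10.5% of all genes. For the combination against nutlin the counts were 1 higher and 1 lower, again SHMT1 and MTHFD2, with 2.56% of all genes in each direction. The MTHFD2 difference in the combination effect was -0.63 ± 0.187 (adjusted p = 0.0138), and without K1 DMSO library 2 it was -0.47 and not called. Without K1 DMSO library 1, PSAT1 (-0.82) and MTHFD1L (-0.62) differed as well, and MTHFD1L also without K1 combination library 1 (-0.60). In the combination against nutlin, PHGDH was called lower in K1 without K1 nutlin library 2 (-0.63) or TPC1 combination library 1 (-0.59), and ALDH1L2 without K1 nutlin library 2 (-0.86).

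Against GSK2830371 alone, the combination raised MTHFD2 and lowered SHMT1 and MTHFD1 in TPC1, and lowered SHMT1 and MTHFD1 in K1. The counts were 1 higher and 2 lower in TPC1, with 19.5% and 19% of all genes, and 0 higher and 2 lower in K1, with 6.3% and 6.75%. MTHFD2 was at 0.73 ± 0.0787 in TPC1. Its K1 value was 0.54 ± 0.135 and was called without GSK2830371 library 1 (0.64). SHMT1 was at -2.73 ± 0.107 and -1.001 ± 0.0784, and MTHFD1 at -1.37 ± 0.0717 and -1.003 ± 0.0550, in TPC1 and K1. In K1 the other 6 genes lay between -0.16 and 0.48.

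The interaction term asks whether the combination differed from the sum of both drugs' changes on the log2 scale. In TPC1 3 of the 9 genes were called above the sum and 1 below, with 2.82% and 3.5% of all genes called so. In K1 1 was called above and none below, with 1.79% and 0.654%. MTHFD2 exceeded the sum in both lines, by 1.67 ± 0.112 (adjusted p = 0.000259) in TPC1 and by 1.35 ± 0.193 (adjusted p = 0.0052) in K1, and it was called without any one library. In TPC1 PSAT1 (0.79 ± 0.103) was called too, again without any one library.

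ALDH1L2 (0.75 ± 0.155, adjusted p = 0.0216) and SHMT1 (-0.66 ± 0.144, adjusted p = 0.0269) were the less stable calls in TPC1. ALDH1L2 lost its call without nutlin library 1 or 3, GSK2830371 library 3 or combination library 3, with values from 0.65 to 0.77. SHMT1 lost it without DMSO library 1, nutlin library 1, either GSK2830371 library or either combination library, with values from -0.67 to -0.54. PHGDH (0.58 ± 0.121), SHMT2 (0.58 ± 0.128) and MTHFD1L (0.57 ± 0.109) lay just under the 1.5-fold bound of 0.585. PHGDH and SHMT2 were called without DMSO library 1 (0.65 and 0.67) or combination library 1 (0.66 and 0.61), and MTHFD1L without combination library 1 (0.65).

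In K1 PSAT1 (0.82 ± 0.297) and ALDH1L2 (0.74 ± 0.278) had interaction values close to those of TPC1 but wider errors, with adjusted p of 0.109 and 0.124. Both were called without nutlin library 1, at 1.24 and 1.22, and PSAT1 also without DMSO library 1 (1.08). PSPH was at 0.50 ± 0.120 and was called without GSK2830371 library 1 (0.60).

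**Figure D3:**
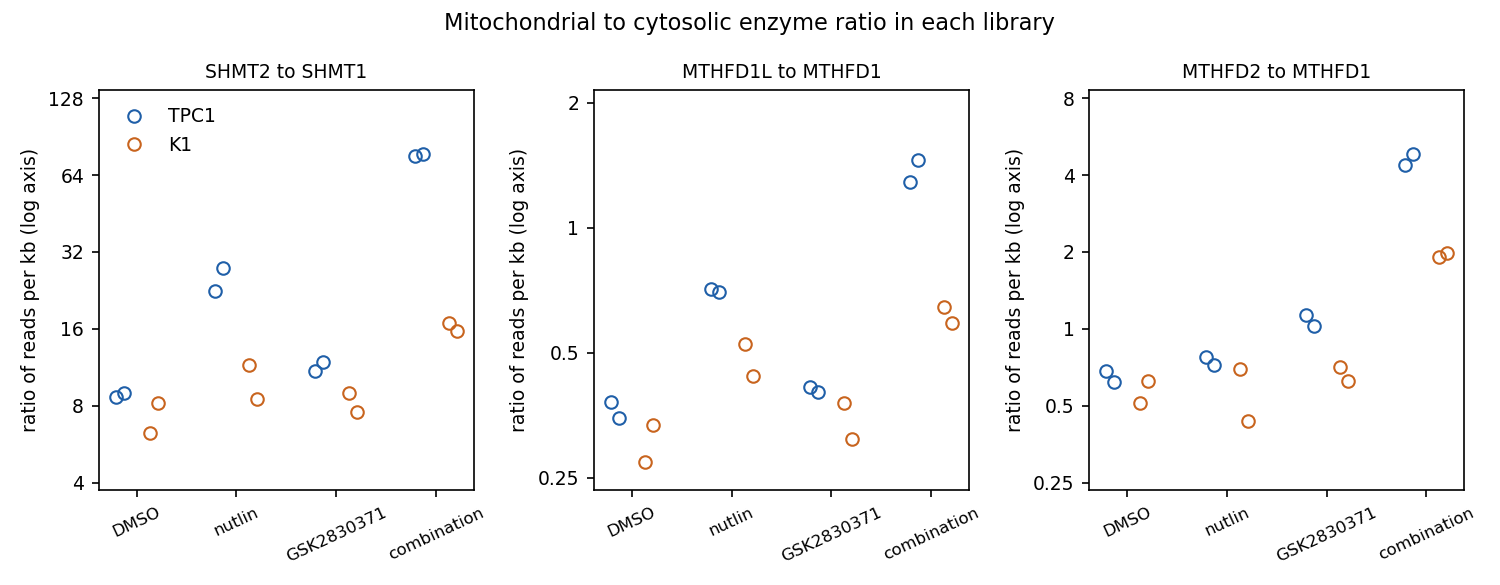
Ratio of a mitochondrial to a cytosolic enzyme, both as reads per kilobase of transcript, in each library by treatment, on log axes, TPC1 in blue and K1 in orange. The 2 combination libraries of each line stand above all the others of that line in every panel, at 75.9 and 77.2 for SHMT2 to SHMT1 in TPC1 against 8.66 and 8.999 in DMSO.

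The mitochondrial and cytosolic enzymes for the same step moved apart under treatment. In TPC1 the ratio of SHMT2 to SHMT1, per kilobase, was 8.66 and 8.999 in DMSO, 10.99 and 11.9 under GSK2830371, 22.5 and 27.7 with nutlin, and 75.9 and 77.2 with the combination. In K1 it was 6.29 and 8.18 in DMSO, 7.57 and 9.01 under GSK2830371, 8.54 and 11.6 with nutlin, and 15.7 and 16.9 with both drugs. The GSK2830371 libraries overlapped those of DMSO and of nutlin in K1, whereas the combination stood above all others in both lines.

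For MTHFD2 to MTHFD1 the TPC1 ratio was 0.618 and 0.682 in DMSO and 4.38 and 4.83 under the combination. In K1 it was 0.512 and 0.623 in DMSO and 1.91 and 1.99 under the combination. Nutlin alone gave 0.719 and 0.776 in TPC1 and 0.437 and 0.695 in K1, since both genes fell. For MTHFD1L to MTHFD1 the DMSO ratios were 0.348 and 0.381 in TPC1 and 0.273 and 0.335 in K1, and the combination ratios 1.29 and 1.46 in TPC1 and 0.590 and 0.644 in K1. Here the ratio moved mainly with MTHFD1.

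Some of the 9 genes had like patterns over the libraries. SHMT1 and MTHFD1 had a Pearson correlation of log2 CPM of 0.996 over the 8 TPC1 libraries and 0.993 over the 8 K1 libraries. PSAT1, MTHFD2 and ALDH1L2 had correlations with each other of 0.973 to 0.978 in TPC1 and 0.896 to 0.956 in K1. PHGDH was closest to SHMT2, at 0.941 in TPC1 and 0.974 in K1. In K1 the correlation of MTHFD1L was 0.651 with SHMT2, 0.518 with PHGDH, 0.470 with PSAT1, 0.417 with SHMT1 and 0.238 with MTHFD2. In TPC1 it was 0.627, 0.411, 0.784, -0.543 and 0.841 with the same genes in that order. These values describe libraries that share treatments, and 8 libraries hold 4 groups.

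**Figure D4:**
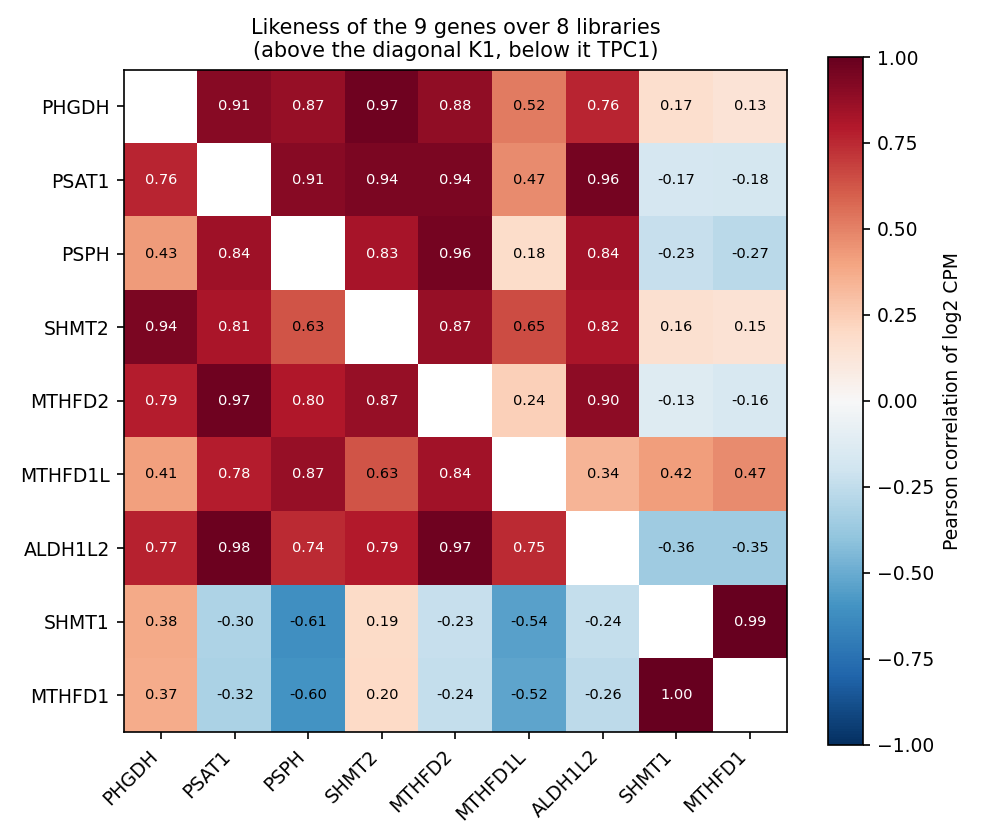
Pearson correlation of log2 CPM between each pair of the 9 genes over 8 libraries, K1 above the diagonal and TPC1 below it, from blue (-1) to red (1). SHMT1 and MTHFD1 pair with each other at 0.99 or more in both lines, and their cells with PSAT1, MTHFD2 and ALDH1L2 are blue.

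The genes of the whole table most like each of the 9 were sought over all 16 libraries, with each line centred on its own DMSO mean. The search ran among the 12794 genes that averaged 1 CPM or more. PSAT1 was most like SLC6A9, a glycine transporter (0.981), ALDH1L2 (0.968) and ASNS, asparagine synthetase (0.962). MTHFD2 was most like GARS, the glycyl-tRNA synthetase (0.959), and CHAC1 (0.958), and ALDH1L2 was most like PSAT1 and then SLC7A11, the cystine transporter (0.962). PHGDH was most like EIF4EBP1 (0.974), MARS, a methionyl-tRNA synthetase (0.973), and SLC1A4 (0.963). SHMT2 was most like YARS, a tyrosyl-tRNA synthetase (0.983), and MARS (0.972), and PSPH like SLC3A2 (0.912), but less closely.

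SHMT1 was most like STRA13 (0.996), RABL6 (0.994) and SPC24, a kinetochore protein (0.993). MTHFD1 was most like THOP1 (0.993), NRM (0.992) and SERTAD4 (0.991). MTHFD1L was most like ZNF777, at 0.929. By rank correlation the leading genes changed for several members. SRRT led for SHMT1 (0.997), ahead of TK1, thymidine kinase (0.988), and UBL4A (0.988), and CDK4 led for MTHFD1 (0.994). All these correlations run over 16 libraries that share 4 treatments.

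A pair of gene lists was read beside the 9 genes. They were 12 genes of DNA replication and the S phase (MCM2 to MCM7, CDC6, CDT1, GINS2, RRM2, CCNE2 and POLE2) and 12 known targets of ATF4 that are not among the 9. All 12 S phase genes fell under nutlin and under the combination in both lines, with medians under nutlin of -3.31 in TPC1 and -2.09 in K1. Of all genes, 18% in TPC1 and 5.43% in K1 were called lower under nutlin. Under the combination against DMSO 21.7% and 8.09% were. Summed, they reached 2309 and 2423 CPM in TPC1 DMSO, 267 and 263 CPM with nutlin, 1772 and 1915 CPM with GSK2830371 and 208 and 205 CPM with the combination. The K1 sums were 1467 and 1551 CPM in DMSO, 337 and 366 CPM with nutlin, 1344 and 1343 CPM with GSK2830371 and 275 and 267 CPM with the combination. SHMT1 and MTHFD1 were lowest in the same groups, and the part of the S phase in their fall was not tested.

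Of the 12 ATF4 targets, 11 were called higher under the combination than under nutlin in TPC1 and 11 in K1, with medians of 1.36 and 1.04. Against DMSO the combination raised 11 in TPC1 and 10 in K1, and GSK2830371 alone raised 9 in TPC1 and 1 in K1. Under nutlin alone 5 of them rose and 3 fell in TPC1, and 1 rose and 2 fell in K1. The summed level of the list was 1335 and 1442 CPM in TPC1 DMSO, 2418 and 2460 CPM under nutlin, 2275 and 2349 CPM under GSK2830371 and 5652 and 5674 CPM under the combination. The K1 sums were 773 and 811 CPM, 899 and 803 CPM, 992 and 932 CPM and 1567 and 1608 CPM in the same order. A sum weighs the most abundant genes of the list most. In TPC1 the sum was higher under nutlin than in DMSO, while the genes of the list went both ways, with a median log2 fold change of 0.24. PHGDH and MTHFD2 were lower there, and how their fall relates to this list was not tested.

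ATF4 itself stood at 606 and 704 CPM in TPC1 DMSO, 486 and 513 CPM under nutlin, 774 and 857 CPM under GSK2830371 and 1022 and 1099 CPM under the combination. In K1 it stood at 411 and 375 CPM, 329 and 340 CPM, 429 and 462 CPM and 741 and 774 CPM in that order. By group means its RNA was lowest under nutlin and highest under the combination in both lines, as was that of MTHFD2, PSAT1 and ALDH1L2. ATF4 rose against nutlin by 1.09 ± 0.0894 in TPC1 and by 1.18 ± 0.0599 in K1. Whether it had a part in the changes of these genes was not tested.

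The other genes of the pathway were read as a list of 41, in the folate enzymes, folate uptake, glycine cleavage, the methionine cycle, purine synthesis and other uses of serine and glycine. Of these 36 could be tested in TPC1 and 34 in K1. Under nutlin 4 rose and 12 fell in TPC1, and 0 rose and 4 fell in K1, by edgeR. Of all genes tested 17.5% rose and 18% fell in TPC1, and 3.84% rose and 5.43% fell in K1. At an unadjusted p under 0.05, 3 of the K1 list were higher, and 0 were called higher by DESeq2. Under the combination against DMSO 7 rose and 14 fell in TPC1, and 1 rose and 7 fell in K1, where the shares of all genes were 22.5% and 21.7% in TPC1 and 7.62% and 8.09% in K1. Against nutlin the combination raised 3 and lowered 2 of them in TPC1 and called 0 of them in K1. The shares of all genes were 6.46% higher and 5.66% lower in TPC1 and 1.16% and 1.52% in K1. At an unadjusted p under 0.05, 3 of the K1 list were higher and 7 lower by edgeR, and DESeq2's Wald test also called 0.

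Among the genes of the list that fell under nutlin in both lines, SLC19A1, the reduced folate carrier, was at -1.78 ± 0.0831 in TPC1 and -0.71 ± 0.0734 in K1. GART, an enzyme of purine synthesis, was at -1.12 ± 0.0765 and -0.61 ± 0.0573, and SFXN2, a sideroflexin of the mitochondrial membrane, at -1.09 ± 0.0828 and -0.78 ± 0.106.

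SLC19A1, GART and SFXN2 were lower under the combination than in DMSO in both lines too, along with TYMS, thymidylate synthase (-1.23 ± 0.124 and -0.60 ± 0.0604), and ATIC, the last enzyme of purine synthesis (-0.91 ± 0.0756 and -0.63 ± 0.0646). MTHFD2 has a pseudogene in the table, MTHFD2P1, with at most 8 reads in any library, and reads shared between the 2 would be uncertain.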

How the data were processed

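Poly(A)+ RNA was sequenced from strand-specific libraries of both lines. Per the labels and the submitters' processing notes, reads were aligned to GRCh37 (hg19) with TopHat2 2.0.13, with Picard 1.129 and SAMtools 1.3.1 used on the alignments, and counted per gene with HTSeq 0.6.1. The deposited values were whole-number counts. The labels number the libraries of a group 1 and 2, while 4 TPC1 columns carry the number 3, and these were placed by group alone.

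Counts were scaled by TMM and tested with edgeR 4.0.16 (R 4.3.3) by glmQLFit and glmQLFTest, on genes over 0.1 CPM in at least 2 libraries. Each line was fitted on its 8 libraries (4 residual degrees of freedom), and differences between the lines on all 16. All p-values were Benjamini-Hochberg adjusted over all genes tested, and calls required an adjusted p under 0.05 and a change over 1.5-fold. Alternatives were DESeq2 1.42.0, other scalings and filters, a GC and length correction, a replicate block and leaving out each library. The method was checked on simulated data. Positions were from GENCODE on GRCh37, and promoters from RefSeq. All 9 genes and the genes of the 41-gene list called in both lines were named, apart from some that are not reported here. The 9 genes and all lists were chosen with earlier results of these data known.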

Additional observations from a re-analysis of the deposited data

Results flagged for a closer look

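SHMT1 and MTHFD2 responded by different amounts in the 2 lines, by edgeR's quasi-likelihood test of the difference with Benjamini-Hochberg adjustment over all genes. The values are K1 minus TPC1 on the log2 scale. For SHMT1 the nutlin effect differed by 1.27 ± 0.135 (SE, adjusted p = 2.60e-06) and the combination effect by 1.89 ± 0.140 (adjusted p = 3.07e-08), so the fall was smaller in K1 in both. Between the combination and nutlin SHMT1 differed by 0.62 ± 0.146 (adjusted p = 0.0139), which was not called without TPC1 nutlin library 1 (0.52) or K1 nutlin library 1 (0.55). For MTHFD2 the combination effect differed by -0.63 ± 0.187 (adjusted p = 0.0138) and the combination against nutlin by -0.73 ± 0.189 (adjusted p = 0.0239), so the rise was smaller in K1. The first was not called without K1 DMSO library 2 (-0.47) or with library totals (-0.51). The second was not called without either K1 combination library, K1 nutlin library 1, either TPC1 nutlin library or TPC1 combination library 3 (-0.77 to -0.42). The line, its medium and its libraries cannot be told apart in these differences.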

How the results depend on the processing

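Of 2826 values of single genes recomputed under the alternatives, 2702 kept their direction and their side of the threshold, 32 lost the call, 92 gained it and 0 reversed with a call. Counts are of the 9 genes called. With no minimum fold change, calls went in TPC1 from 4 to 7 (nutlin), 1 to 4 (GSK2830371), 3 to 8 (combination against GSK2830371) and 4 to 7 (interaction). Calls for the combination there became 5 higher and 2 lower against DMSO, and 7 higher and 2 lower against nutlin. In K1 they went from 3 to 6 (nutlin), 3 to 5 (combination), 4 to 8 (combination against nutlin), 2 to 4 (combination against GSK2830371) and 1 to 2 (interaction). Between the lines they went from 1 to 3 (nutlin effect) and from 2 to 4 (combination effect). Calls between the lines became 6 lower in DMSO, and 1 higher and 2 lower for the combination against nutlin. The 1.5-fold bound itself accounts for these gains, since nothing else was changed. With DESeq2 size factors or the DESeq2 Wald test, 7 genes were called in the TPC1 interaction and 2 for the nutlin effect between the lines. That last count was 2 also with the filterByExpr filter, with library totals in place of TMM and with the GC and length correction. Library totals left 1 call in the combination effect between the lines. In the K1 interaction the GC and length correction gave 2 calls and no filter gave 3. Fitting only the groups compared with DESeq2's moderated fold changes left 1 call in K1 for the combination against nutlin. The causes of these moves were not tested. 

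Leaving out 1 library in turn gave 4 to 5 calls (nutlin), 0 to 2 (GSK2830371), 5 to 6 (combination), 6 to 7 (combination against nutlin), 3 to 3 (combination against GSK2830371) and 2 to 6 (interaction) in TPC1. In K1 the ranges were 2 to 5, 0 to 0, 2 to 5, 2 to 5, 2 to 3 and 1 to 3 in that order. Between the lines they were 5 to 5 in DMSO, 1 to 2 for the nutlin effect, 1 to 4 for the combination effect and 0 to 4 for the combination against nutlin. Group arms left with 1 library were assumed to vary like the others.

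The replicate numbers were also used as a block. Differences between the 2 libraries of a group correlated across treatments at 0.448 to 0.624 in TPC1, but in K1 DMSO ran against the other groups, at -0.257 to -0.322, and 2 numbers do not establish a pairing. The replicate block changed 1 call among the 9 genes, PSAT1 for the combination effect between the lines (-0.59, adjusted p = 0.0494 by edgeR). Over all genes, calls in TPC1 went from 214 to 480 for GSK2830371 and from 965 to 1573 for the interaction. A block with the K1 DMSO numbers crossed, added after seeing the data, called 543 genes in the K1 interaction against 388 without it, and 3 of the 9 genes in place of 1. The precision is set by 2 libraries per group rather than by depth.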

Other observations

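In 3 of the 4 K1 groups the serine and mitochondrial enzymes differed in the same direction between the 2 libraries. In DMSO all 7 of them (the 9 genes without SHMT1 and MTHFD1) were higher in library 2, with a median log2 difference of 0.30. Under nutlin all 7 were lower in library 2, with a median of -0.29, and under GSK2830371 all 7 were lower, with a median of -0.25. Under the combination 1 of the 7 was higher in library 2, and the median was -0.10. Over all genes the medians were -0.00394 in DMSO, 0.0170 under nutlin and 0.0147 under GSK2830371. SHMT1 and MTHFD1 differed by -0.15 and 0.01 in DMSO and by 0.15 and 0.10 under nutlin. The ATF4 targets had medians of 0.04 in DMSO and -0.17 under nutlin, and ATF4 RNA differed by -0.13 and 0.05.

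In the wider list, TPC1 held changes that K1 did not show as calls. SDSL, a serine dehydratase-like enzyme, rose in TPC1 by 1.34 ± 0.198 under nutlin and by 3.11 ± 0.189 under the combination, with edgeR. The K1 values were 0.19 ± 0.121 and 0.40 ± 0.118, and K1 minus TPC1 was -1.17 and -2.74, both called. MAT2A, which makes S-adenosylmethionine, fell in TPC1 by 0.71 under nutlin and by 1.30 under the combination, and in K1 it was at -0.07 and -0.11. The lines differed by 0.61 and 1.16, both called. SFXN1, the mitochondrial serine carrier, was at -1.18 and -1.28 in TPC1 and at -0.24 and -0.17 in K1, and the lines differed by 0.91 and 1.08, both called. ALDH1L1, the cytosolic counterpart of ALDH1L2, had 0 reads in both TPC1 DMSO libraries and 20 and 61 reads under the combination. These 4 genes were chosen after their values were seen.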
